A study of Rattus norvegicus with 10 samples.

Results

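The 10 genes described here encode proteins of the dense-core granule: the granin family members Vgf, Scg2, Scg3, Scg5, Chga and Chgb, and the prohormone enzymes Pcsk1, Pcsk2, Cpe and Pam. They were found by matching the RefSeq transcript identifiers of the count matrix to these rat symbols, with the row of highest mean count taken for each symbol. Each symbol had exactly 1 row, so the 10 genes are 10 of 32041 rows, and all 10 passed the filter on low counts that left 22447 features for testing. Messenger RNA came from hippocampal tissue of 10 male Sprague-Dawley rats, and the question was which genes differ in expression between rats made epileptic by amygdala stimulation and sham rats.

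All rats, of 290 to 320 g, carried a wire electrode in the left lateral amygdala, implanted under isoflurane with butorphanol. The 5 sham rats (rats 1 to 5) received no current. The 5 stimulated rats (rats 6 to 10) were given 400 µA pulse trains (60 Hz) for 30 min. Stimulation was continued for longer if status epilepticus, an unremitting seizure, had not set in. The status epilepticus was later stopped with diazepam. Stimulation, status epilepticus, diazepam and the spontaneous seizures that followed cannot be told apart in this design. The tissue was taken 3 months later from the left hippocampus, in a piece that contained CA3 and the dentate gyrus and is labelled dorsal hippocampus. The time between the last seizure of a rat and its death is not given in the sources used here. The study's methods give a lower number of stimulated rats for mRNA sequencing than the labels, and all labelled rats were used.

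Dense-core granules are the storage compartment of the regulated secretory pathway, from which neurons release peptides and neurotrophins. Granins are acidic proteins that aggregate in the trans-Golgi network and take part in packing the cargo, and several are themselves cut into active peptides. The precursors are cleaved by the convertases PC1/3 and PC2, trimmed by carboxypeptidase E and amidated by the enzyme encoded by Pam. In the hippocampus, Vgf and Scg2 are known as genes whose transcription follows neuronal activity, and granule cells of the dentate gyrus carry peptide stores in their mossy fibres.

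No member differed between the groups at an adjusted p-value under 0.05, and the differences that were found lay in 3 of the 5 stimulated rats. Vgf, a granin precursor of neuroactive peptides, averaged 62.2 ± 8.4 CPM among sham rats and 191 ± 126 CPM among stimulated rats (SD, n = 5 each). Chgb, an abundant granin of brain granules, had means of 771 ± 82 and 1056 ± 307 CPM, and Pam, the amidating enzyme, had means of 217 ± 17.9 and 301 ± 91.6 CPM. CPM are read counts relative to library size, with library sizes scaled by TMM factors. By the quasi-likelihood test of edgeR, these 3 genes were the members with an unadjusted p-value under 0.05.

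In that test 3 of 10 members were higher at an unadjusted p-value under 0.05, where 6.7% of all tested features were, and 0 of 10 were lower, where 3.16% of all features were. The members were chosen with earlier results of these data known, so this count and those below are no independent support. At an adjusted p-value under 0.05 there were 0 members, and 0% of all features. At an unadjusted p-value under 0.001 there were also 0 members, beside 0.156% of all features higher and 0.0178% lower. The log2 fold change, stimulated over sham, was above 0 for 9 of 10 members and for 52.2% of all features. The median log2 fold change of the members was 0.31, from -0.058 for Scg5 to 1.62 for Vgf, and that of all features was 0.012. Complete separation of the 2 groups was seen for 0 of 10 members, beside 0.695% of all features with stimulated rats higher and 0.597% with stimulated rats lower. Among all features the split at an unadjusted p-value under 0.05 was 1505 higher and 709 lower, and it became 1725 and 477 with library size alone as the scaling, while the members stayed at 3 and 0.

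**Figure D1:**
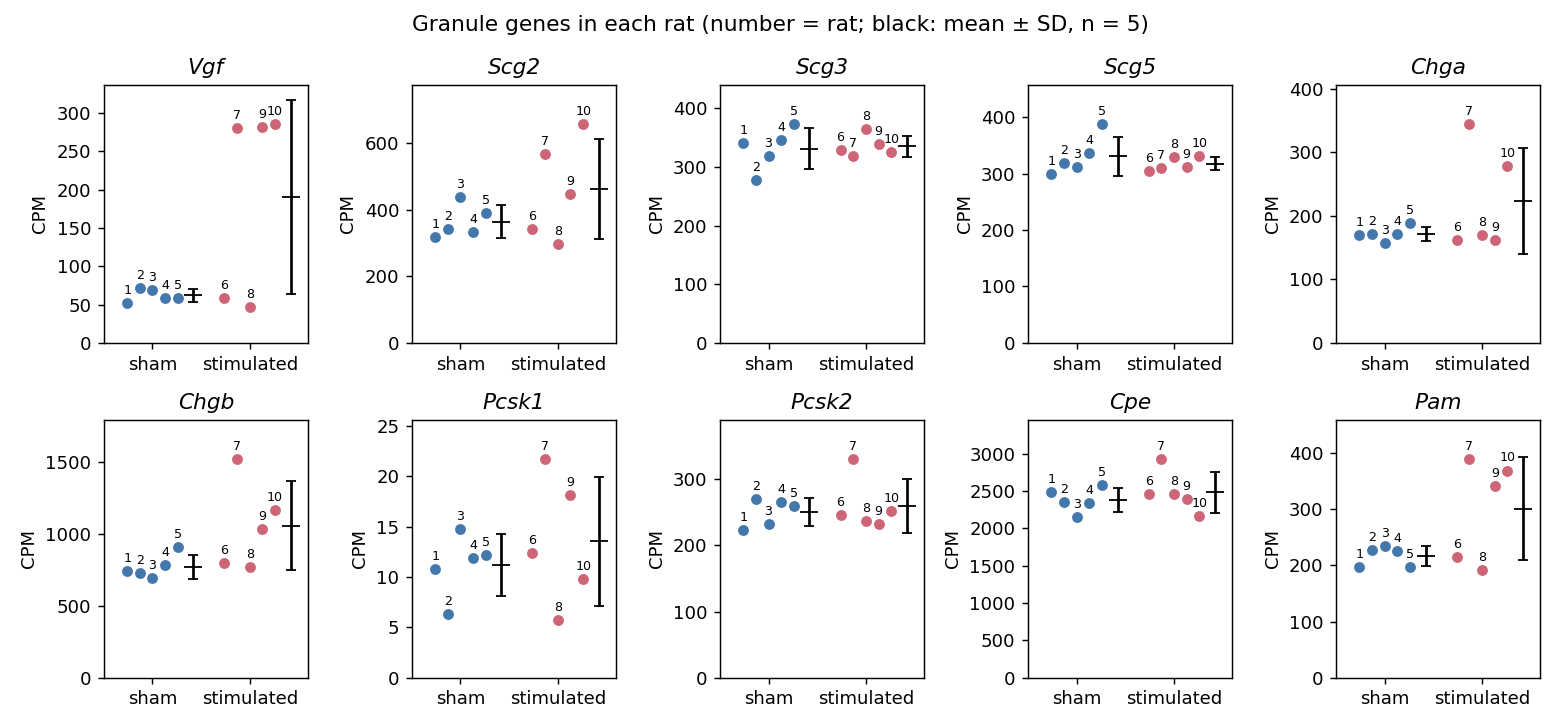
Level of each of the 10 genes in every rat, in CPM on a linear axis that starts at 0, with sham rats in blue, stimulated rats in red, the rat number above each point and the mean ± SD of each group (n = 5) in black. For Vgf, stimulated rats 7, 9 and 10 sit between 281 and 285 CPM, while rats 6 and 8 sit at 58.4 and 46.3 CPM beside the sham rats.

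Aligned counts per rat ranged from 13552300 to 24086100, and the 10 genes together took between 0.454% and 0.697% of them. The lowest member count was 83 reads, of Pcsk1 in sham rat 2, where the counting error alone is 11%. For the other 9 members it was at most 3.71% in any rat, less than the spread between sham rats. The share of reads that the authors could not align was 32.8% to 37.1% in sham rats and 35.6%, 32.0%, 41.4%, 42.9% and 45.1% in stimulated rats 6 to 10. With that share as a covariate, 4 members were higher at an unadjusted p-value under 0.05, as Chga, with a log2 fold change of 0.49, joined Vgf, Chgb and Pam. Of all features 6.38% were higher in that fit. The part of the unaligned share in the levels was not tested further. No label names a sequencing batch, and within-batch values could not be given. Because whole tissue was sequenced, fewer cells of a type and less RNA per cell cannot be told apart.

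Vgf (NM_030997) was counted at 51.8, 72.1, 69.4, 58.9 and 58.7 CPM in sham rats 1 to 5. In stimulated rats 6 to 10 it was counted at 58.4, 281, 46.3, 282 and 285 CPM. Rats 7, 9 and 10 lay far above every sham rat and close to one another, rat 6 lay within the sham range and rat 8 lay below it. Relative to the sham mean, the log2 level was 2.18, 2.19 and 2.21 higher in rats 7, 9 and 10. The fitted log2 fold change was 1.62 (SE 0.436, 95% interval 0.68 to 2.55), with an unadjusted p-value of 0.00241 and an adjusted p-value of 0.376. The exact permutation test of the mean log2 CPM over all assignments of the rats to groups gave p = 0.159 (two-sided, n = 5 each), where 0.00794 is the smallest value it can give. In the likelihood ratio test of edgeR the adjusted p-value of Vgf was 0.0429, where 0.53% of all features were called, and in its exact test 0.0491, where 0.401% were called. DESeq2 called 0.147% of the features, and gave Vgf an adjusted p-value of 0.162. Across all alternatives other than leaving out a rat, the adjusted p-value of Vgf ranged from 0.0429 to 0.528.

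The ratio of Vgf to Cpe reads within each library does not depend on the scaling between libraries. It was 20.8 to 32.2 Vgf reads per 1000 Cpe reads in sham rats. In stimulated rats 6 to 10 it was 23.7, 95.9, 18.8, 118 and 131 reads. The same 3 rats stood above the sham range by this measure.

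Promoter sequence was available from RefSeq (GRCr8) for 8 of the 10 members, as windows of 250 bases before to 50 after a start site. The cyclic AMP response element (CRE), bound by factors such as CREB that act downstream of neuronal activity, was searched as TGACGTCA on both strands. It was present in the windows of 2 of the 8 members, Vgf and Scg2, and in 1.83% of all 33469 windows. The shorter core TGACG, which every full CRE also contains, was present for 7 of the 8 members and in 21.2% of all windows. Chgb was the member without it. The log2 fold change was 1.62 for Vgf and 0.34 for Scg2, with the full element, and 0.45 for Chgb, with neither. With the core alone it was 0.47 for Pam, 0.015 for Scg3, -0.058 for Scg5, 0.054 for Pcsk2 and 0.059 for Cpe. A link between these letters and the levels was not tested. The windows below are shown because Vgf and Scg2 share the full element, and so that the cores of other members can be read beside it. They run 5′ to 3′ on the strand of the gene, and capitals mark the match.
Vgf: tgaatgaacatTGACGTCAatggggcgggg
Scg2: ggctgagccggTGACGTCAgcgaggaatgc
Pam: cgaatgatgacTGACGcgggtctgcgc
Scg3: cgctgggtcgcTGACGccatcctcacg
Scg5: gcggagggaggTGACGcaggagctatc
Cpe: catttggctttTGACGtgggtctgagc
Pcsk2: tggcgggcgcgCGTCAcccgggctggc

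The Vgf window is chr12:25277092-25277121 on the minus strand, with the first base of its CRE at -90 from the start site. That of Scg2 is chr9:88256971-88257000 on the minus strand, with the CRE at -123. Both lie inside the annotated span of their gene, before the start site that the RefSeq window uses. The cores of Pam (chr9:105570252-105570278, plus strand), Scg3 (chr8:85322538-85322564, minus strand), Scg5 (chr3:121042787-121042813, minus strand) and Cpe (chr16:29796523-29796549, plus strand) begin at -105, -69, -7 and -173. Scg5 has a further core at 15, which reads in the reverse direction. That of Pcsk2 (chr3:151333870-151333896, plus strand) begins at -57 and reads in the reverse direction. The AP-1 letters TGANTCA were found for 0 of the 8 members and in 7.33% of all windows, and the E-box letters CANNTG for 6 of 8 and in 72.1%. A match of letters is a description of these windows and no measurement of binding.

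Scg2 (NM_022669), the precursor of secretoneurin and one of the activity-responsive granins, was counted at 317, 343, 439, 333 and 392 CPM in sham rats 1 to 5. In stimulated rats 6 to 10 it was counted at 344, 568, 297, 447 and 658 CPM. Rats 7 and 10 were clearly above the sham range, rat 9 was just above sham rat 3, and rat 8 was below all sham rats. Between the groups its log2 fold change was 0.34 (SE 0.185, 95% interval -0.055 to 0.74, unadjusted p = 0.086, adjusted p = 0.557). Without rat 6 or without rat 8 the unadjusted p-value of Scg2 was under 0.05, and its lowest value over the omission of each rat was 0.0157. Without rat 10 the log2 fold change of Scg2 was 0.18 (unadjusted p = 0.29), and without rat 7 it was 0.25.

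Chga (NM_021655), chromogranin A, was counted at 169, 171, 158, 172 and 188 CPM in sham rats 1 to 5 and at 162, 344, 169.9, 163 and 279 CPM in stimulated rats 6 to 10. Rats 7 and 10 were high. Rat 9, in which Vgf was as high as in the other two, was within the sham range for Chga. Its log2 fold change was 0.38 (SE 0.191, 95% interval -0.029 to 0.79, adjusted p = 0.533), and it was 0.16 without rat 7.

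Chgb (NM_012526), chromogranin B, was counted at 743, 730, 694, 780 and 907 CPM in sham rats 1 to 5. The values in stimulated rats 6 to 10 were 794, 1519, 770, 1034 and 1165 CPM. Again rats 7, 9 and 10 lay above all sham rats, and rats 6 and 8 lay within their range. For Chgb the log2 fold change was 0.45 (SE 0.16, 95% interval 0.11 to 0.80, unadjusted p = 0.0134, adjusted p = 0.414), and it was 0.27 without rat 7. The exact permutation test gave p = 0.0635 (two-sided, n = 5 each), the lowest of the 10 members.

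For Scg3 and Scg5 the 95% intervals held a difference between the groups to at most 0.20 higher and 0.23 lower on the log2 scale. Scg3 (NM_053856), a granin that binds cholesterol and chromogranin A at the granule membrane, ranged from 278 to 373 CPM in sham and from 318 to 364 CPM in stimulated rats. Its log2 fold change was 0.015 (SE 0.0845, 95% interval -0.17 to 0.20, adjusted p = 0.968). Scg5 (NM_013175), which encodes 7B2, the chaperone needed for active PC2, ranged from 299.6 to 387 CPM in sham and from 305 to 331 CPM in stimulated rats. Its log2 fold change was -0.058 (SE 0.0802, 95% interval -0.23 to 0.11, adjusted p = 0.847). Both intervals leave out the fitted values of Vgf, Chgb and Pam. In each of the 5 stimulated rats, both genes were within the range of the sham rats.

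Of the convertases, Pcsk1 (NM_017091), which encodes PC1/3, had the lower counts and the wider spread. Its levels were 10.8, 6.34, 14.7, 11.9 and 12.2 CPM in sham rats 1 to 5. The levels of stimulated rats 6 to 10 were 12.4, 21.7, 5.75, 18.1 and 9.80 CPM. Rats 7 and 9 were above all sham rats, rat 8 was below them, and rat 10, among the highest for Vgf, was within their range. In sham rat 2 the exact 95% Poisson interval, which covers counting error only, was 5.05 to 7.85 CPM, so this rat also lay apart from the other sham rats by more than counting error. A log2 fold change of 0.27 was fitted (SE 0.303, 95% interval -0.38 to 0.92, adjusted p = 0.796). It was 0.025 without rat 7 and 0.45 without rat 8.

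Pcsk2 (NM_012746), which encodes PC2, ranged from 224 to 270 CPM (sham) and from 233 to 331 CPM (stimulated), with 1 stimulated rat, rat 7, above the sham range. Its log2 fold change was 0.054 (SE 0.103, 95% interval -0.17 to 0.28, adjusted p = 0.9), and -0.060 without rat 7. With counts scaled to Cpe its direction was also reversed, at -0.010.

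Cpe (NM_013128), carboxypeptidase E, held the most reads of the 10 genes, with 2156 to 2579 CPM in sham and 2170 to 2927 CPM in stimulated rats. Rat 7 alone was above the sham range. Cpe had a log2 fold change of 0.059 (SE 0.0839, 95% interval -0.12 to 0.24, adjusted p = 0.857), and of -0.019 without rat 7. Read counts were not divided by transcript length, so levels are compared between rats and not between genes.

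Pam (NM_013000), peptidylglycine alpha-amidating monooxygenase, which gives many neuropeptides their amidated end, was counted at 197, 228, 235, 226 and 198 CPM in sham rats 1 to 5. Stimulated rats 6 to 10 carried 215, 389, 191, 341 and 369 CPM. As for Vgf and Chgb, rats 7, 9 and 10 stood above all sham rats, and rat 8 was below them. The fitted log2 fold change of Pam was 0.47 (SE 0.175, 95% interval 0.098 to 0.85, unadjusted p = 0.0172, adjusted p = 0.42). The exact permutation test gave p = 0.143 (two-sided, n = 5 each). Without rat 7 the unadjusted p-value of Pam was 0.0513 and its log2 fold change 0.35.

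**Figure D2:**
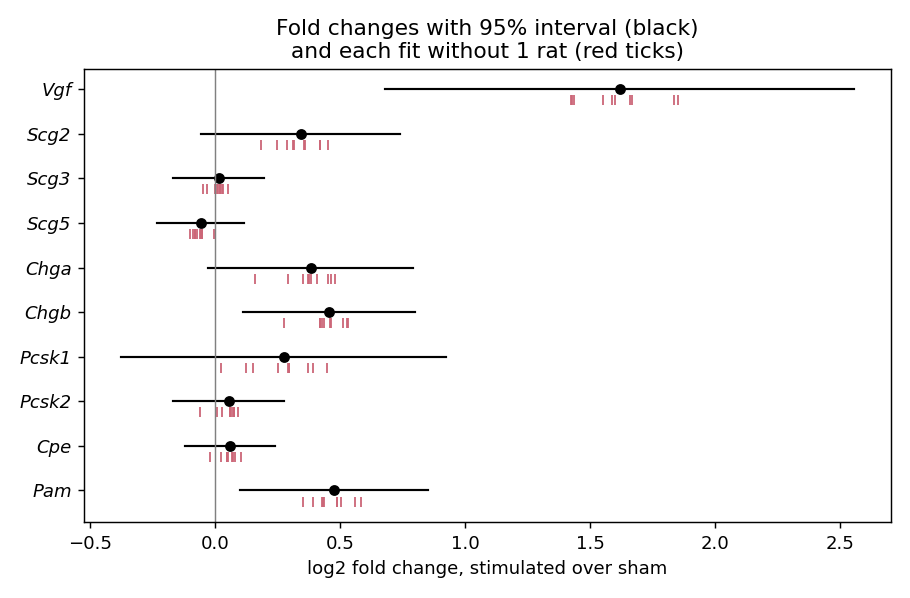
Log2 fold change of each gene, stimulated over sham, as a black point with its 95% interval from the quasi-likelihood fit, and as red ticks the values of the 10 fits that each left out 1 rat. The interval of Vgf runs from 0.68 to 2.55, those of Chgb and Pam also lie above 0, and those of the other 7 genes include 0.

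The SD of log2 CPM was larger in stimulated than in sham rats for 8 of 10 members, a share near the 69.5% of all features. It was 1.34 against 0.195 for Vgf, 0.51 against 0.0901 for Chga and 0.476 against 0.121 for Pam. Scg3 and Scg5 were the exceptions, with 0.0754 against 0.16 and 0.0542 against 0.145. In 4 of 10 members (Vgf, Scg2, Chgb and Pam) at least 3 of the 5 stimulated rats were above all sham rats, beside 14.8% of all features.

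Rat 7 was above all sham rats for 8 members, that is all but Scg3 and Scg5, and had the highest value of the 10 rats for 6 of them. Rat 9 was above them for 5 members (Vgf, Scg2, Chgb, Pcsk1 and Pam). Rat 10 was above them for 5 members also, with Chga in place of Pcsk1. Rat 6 was within the sham range for all 10 members. Rat 8 was above it for 0 members and below it for 4 (Vgf, Scg2, Pcsk1 and Pam). Rats 7, 9 and 10 shared Vgf, Scg2, Chgb and Pam, and differed in Chga, Pcsk1, Pcsk2 and Cpe.

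Levels of activity-dependent genes moved with these differences. Fos (NM_022197), the immediate early transcription factor, was counted between 3.26 and 5.32 CPM in sham rats. Stimulated rats 6 to 10 carried 5.61, 106, 5.24, 50.3 and 61.7 CPM. Nptx2 (NM_001034199), an activity-regulated pentraxin of excitatory synapses, was counted between 41.5 and 52.0 CPM in sham rats and at 47.5, 558, 38.6, 783 and 235 CPM in stimulated rats 6 to 10. The rats with high Vgf were those with high Fos and Nptx2. A list of 16 activity-dependent genes was written with earlier results of these data known, so its count is no independent support. Of these, 14 were higher at an unadjusted p-value under 0.05, where 6.7% of all tested features were, and 0 at an adjusted one. The summed level of the 16 genes was 329 to 389 CPM in sham rats. In stimulated rats 6 to 10 it was 407, 1723, 316, 3094 and 1174 CPM. By this sum rat 6 was also above the sham range and rat 8 was below it. By the mean of log2 CPM, sham rats were at 3.28 to 3.63, rat 6 at 3.72 and rat 8 at 3.34. Rat 8 was within the sham range by that mean. Nptx2 was above all sham rats in 3 of the 5 stimulated rats, Fos in 4 and Inhba in all 5, as were 0.695% of all features. Of the 16 genes, 1 had a count of 0 in some rat. The part of recent activity in the levels of the granule genes was not tested.

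**Figure D3:**
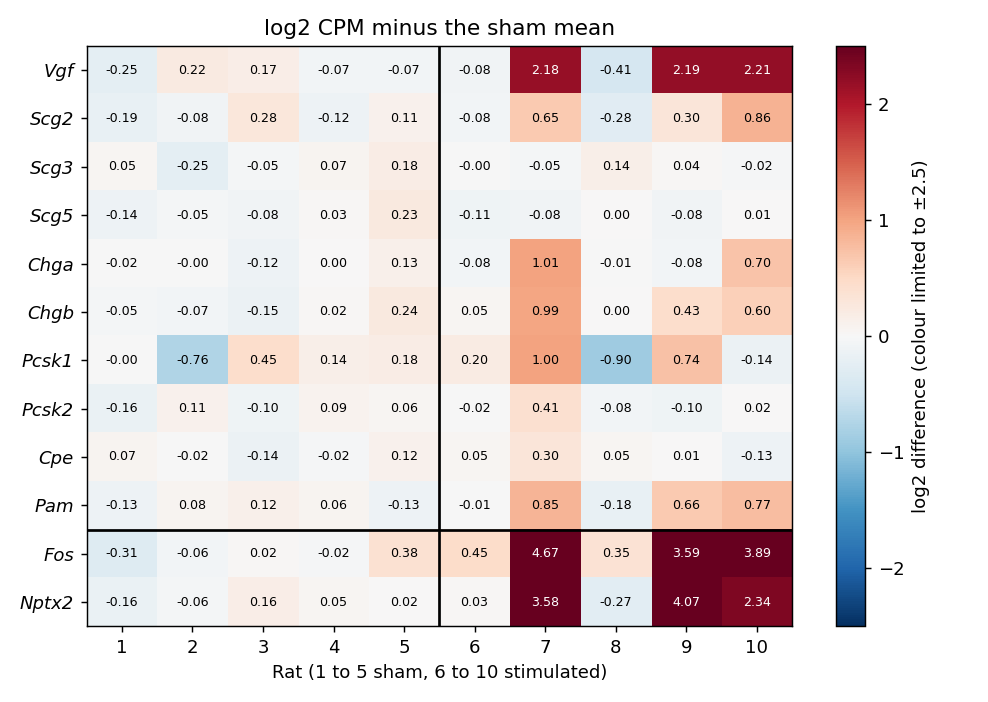
Log2 CPM of each gene in each rat minus the mean of the 5 sham rats, for the 10 granule genes and, under the horizontal line, Fos and Nptx2. Columns of rats 7, 9 and 10 hold values from 2.18 to 2.21 for Vgf, and the colour scale is limited to ±2.5 while the printed numbers are not.

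The features whose levels over the 10 rats followed Vgf most closely were ranked by the root mean square difference in log2 CPM after each was centred on its sham mean. The nearest was Serinc2 (NM_001031656), with a difference of 0.318. It was followed by Bdnf (NM_001270630, 0.322), the neurotrophin that is itself stored in dense-core granules, Runx1 (NM_017325, 0.322), a transcription factor, and the immediate early factors Egr4 (NM_019137, 0.335) and Egr1 (NM_012551, 0.343). The CPM of Serinc2 in stimulated rats 6 to 10 were 16.2, 65.4, 16.0, 90.3 and 50.8, beside 12.8 to 17.7 in sham rats. In all 5 of these features rats 7, 9 and 10 were high. They were picked for this likeness, so their fold changes, from 1.19 to 1.97 on the log2 scale, carry no test.

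The rest of the processing machinery was read from a list of 15 other convertases, trimming enzymes and an inhibitor, of which 13 were tested. Of these, 1 was higher and 0 were lower at an unadjusted p-value under 0.05, beside 6.7% and 3.16% of all features. Of the 13, 0 passed adjustment, and the median log2 fold change was 0.040. The higher gene was Furin (NM_019331), the convertase of the constitutive secretory pathway, which averaged 43.4 ± 8.98 CPM among sham and 66.5 ± 27.7 CPM among stimulated rats (SD, n = 5 each). Its fold change was 0.62 on the log2 scale (SE 0.243, adjusted p = 0.432). Its values in stimulated rats 6 to 10 were 37.3, 104, 43.2, 81.9 and 65.9 CPM, so that rats 7, 9 and 10 exceeded the highest sham rat at 58.4 CPM. Pcsk1n, which encodes the PC1/3 inhibitor proSAAS, averaged 422 ± 52.4 and 366 ± 70.5 CPM in the same order, which is -0.21 on the log2 scale (SE 0.129, adjusted p = 0.611).

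Of 26 genes of granule formation, traffic, cofactor supply and release, 23 were tested. At an unadjusted p-value under 0.05, 0 were higher and 2 were lower, beside 6.7% and 3.16% of all features. Of the 23, 0 passed adjustment, and the median log2 fold change was -0.051. The lower genes were Rph3a (NM_133518), which encodes the Rab3 effector rabphilin, and Pick1 (NM_053460), a membrane-curving protein of early granules. Rph3a averaged 143 ± 15.5 CPM among sham and 112 ± 19.6 CPM among stimulated rats (SD, n = 5 each), which is -0.36 on the log2 scale (SE 0.117, adjusted p = 0.399). Pick1 averaged 35.6 ± 0.864 and 30.4 ± 1.79 CPM, or -0.23 on the log2 scale (SE 0.0831, adjusted p = 0.416), and all 5 stimulated rats were below all sham rats. Of all features 0.597% were separated in this direction. Pick1 was also low in rats 6 and 8, at 32.0 and 32.6 CPM against a lowest sham value of 34.7 CPM, while rat 6 was within the sham range for all 10 members and rat 8 was below it for 4. Ptprn, which encodes the granule membrane protein IA-2, differed by 0.18 on the log2 scale (SE 0.132, adjusted p = 0.681), with 946, 799 and 924 CPM in rats 7, 9 and 10 against 633 to 761 CPM in sham rats. In rats 6 and 8 Ptprn was below all sham rats, at 582 and 602 CPM. Cadps, which encodes the granule priming factor CAPS, differed by -0.026 (SE 0.0725, adjusted p = 0.932).

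Among 17 precursors of peptide and neurotrophin cargo, 4 were higher and 0 lower at an unadjusted p-value under 0.05, beside 6.7% and 3.16% of all features. Of the 17, 0 passed adjustment, and the median log2 fold change was 0.31. This list too was written with earlier results of these data known, so its count is no independent support. Npy, the precursor of neuropeptide Y, was counted at 5.53 to 11.2 CPM in sham rats and at 8.6, 192, 5.36, 80.2 and 107 CPM in stimulated rats 6 to 10. On the log2 scale this was a fold change of 3.22 (SE 0.748, adjusted p = 0.376). Those of Tac3, Bdnf (NM_012513) and Cartpt were 3.50 (SE 0.995), 2.81 (SE 0.693) and 1.83 (SE 0.558), with adjusted p-values of 0.38, 0.376 and 0.396. Rat 7 carried 329 CPM of Tac3, rat 9 carried 9.54 CPM and rat 10 carried 42.4 CPM, so cargo genes too were unequal among the high rats. Cartpt was high in rats 7 and 9, at 9.47 and 9.18 CPM, but not in rat 10, at 1.03 CPM.

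**Figure D4:**
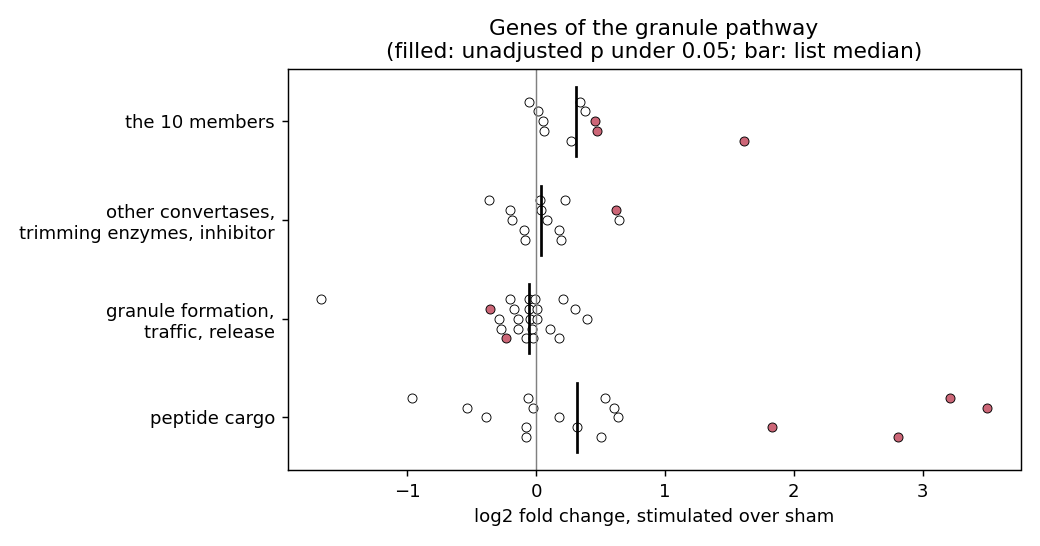
Log2 fold change, stimulated over sham, of each tested gene of the 10 members and of the 3 further lists, with filled points for an unadjusted p-value under 0.05 and a bar at the median of each list. The medians are 0.31 for the members, 0.040 for other convertases, trimming enzymes and inhibitor, -0.051 for granule formation, traffic and release, and 0.31 for peptide cargo.

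Markers of the tissue and of other cells were read beside these values, as summed CPM of each list. Neuronal genes (10 of 10 tested) were at 4463 to 4842 CPM in sham and 4221 to 4964 CPM in stimulated rats. At an unadjusted p-value under 0.05, 0 of these genes were higher or lower. By the mean of log2 CPM, sham rats were at 8.38 to 8.50. Stimulated rats 6 to 10 were at 8.53, 8.48, 8.45, 8.36 and 8.30, so rats 9 and 10 were below all sham rats. Markers of CA3 (4 of 5 tested) were at 548 to 644 and 561 to 683 CPM. Those of dentate granule cells (5 of 7 tested) were at 270 to 336 and 237 to 417 CPM. Of the granule cell genes 1, Trpc6, was higher at an unadjusted p-value under 0.05 and 0 were lower. Prox1 and Calb1, which mark granule cells, were present at means of 28.2 and 88.9 CPM in sham rats, while Tdo2 had 1 read in all rats together and Dsp had no matched row. The CA1 list (5 of 5 tested) was at 186 to 305 and 110 to 365 CPM. Interneuron genes (7 of 7) were at 308 to 359 CPM in sham rats. In stimulated rats 6 to 10 they were at 348, 266, 298, 330 and 271 CPM, so rats 7, 8 and 10 were below all sham rats. In the CA3, CA1 and interneuron lists 0 genes were higher or lower at an unadjusted p-value under 0.05.

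Astrocyte markers (8 of 8 tested) were at 2619 to 3198 CPM in sham rats and at 2722, 7930, 2816, 3739 and 6899 CPM in stimulated rats 6 to 10, with 4 of 8 genes higher at an unadjusted p-value under 0.05. Most of this rise in the sum was Gfap, the intermediate filament of astrocytes, at 1327 to 1927 CPM in sham rats and at 1326, 6469, 1375, 2079 and 5396 CPM in rats 6 to 10. As a mean of log2 CPM over the 8 genes, the list was at 7.30 to 7.56 in sham rats and at 7.46, 7.37, 7.56, 7.73 and 7.67 in rats 6 to 10. By the sum rats 7 and 10 were highest, and by the mean log2 level rats 9 and 10 were, with rat 7 inside the sham range. Microglial markers (8 of 8) were at 328 to 423 CPM in sham rats. In stimulated rats 6 to 10 they were at 360, 572, 375, 512 and 449 CPM. By this sum rats 7, 9 and 10 were above all sham rats, and by the mean of log2 CPM rats 7 and 9 were. Endothelial markers (7 of 8) were at 165 to 184 CPM in sham and 155 to 319 CPM in stimulated rats. Oligodendrocyte markers (8 of 8) were at 2721 to 3916 and 2203 to 3684 CPM. At an unadjusted p-value under 0.05, 2 microglial, 4 endothelial, 0 oligodendrocyte and 1 choroid plexus genes were higher and 0 were lower. Of all features 6.7% were higher. The endothelial gene Pecam1 was above all sham rats in all 5 stimulated rats (adjusted p = 0.376), as were 0.695% of all features. Choroid plexus markers (6 of 6) were at 3.56 to 18.1 and 7.74 to 35.04 CPM, and 2 of them had a count of 0 in some rat, as had 1 granule cell gene. In the other 8 cell lists no tested gene was at 0 in any rat. The part of these cells in the levels of the granule genes was not tested.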

How the data were processed

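Polyadenylated RNA was read in single reads of short length. Per the labels and the methods of the study, the authors aligned reads to rn4 with BWA and counted them with their own script. The deposited values are raw counts of reads per RefSeq transcript, with no normalization; how shared reads and strand were treated was not stated, so overlapping or antisense transcripts cannot be told apart. The unaligned row was set aside. Rows with a summed count below the 30th percentile (46) were left out, as in the study. Groups came from the treatment label. The test was edgeR's quasi-likelihood test (edgeR 4.0.16, R 4.3.3) with TMM factors and Benjamini-Hochberg adjustment over all 22447 features; every adjusted p-value comes from it unless another tool is named. SE is the log2 fold change divided by the root of F. Log2 CPM used a prior count of 2. Single members were also compared with exact permutation tests. The fit was tested on simulated data.

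Symbols and promoter windows came from RefSeq (GRCr8), for names and letters alone. No transcript lengths or protein sequences were used here, so the protein features planned were not analysed. Chga and Pcsk1 have no window here. Alternatives were RLE, upper quartile and no scaling factors, other filters, the likelihood ratio test, the exact test, DESeq2 1.42.0, limma-voom 3.58.1, robust empirical Bayes, summed rows, the unaligned share as a covariate, and the omission of each rat; scaling to Cpe was added after the data were seen.

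The members and the gene lists were chosen with earlier results of these data known. Genes named were the members, then from each pathway and cargo list those with an unadjusted p-value under 0.05 (at most 4), with Furin, Pcsk1n, Ptprn and Cadps in any case, Fos and Nptx2, and the 5 features nearest to the member of largest fold change. Whether the rats came from separate litters was not stated.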

Additional observations from a re-analysis of the deposited data

Results flagged for a closer look

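In each group of 5 rats, the gap between the most extreme rat and its nearest neighbour was set against the whole range of the group, with Dixon's critical value of 0.71. Over the 10 genes and both groups, chance would exceed it in about 1 group. It was exceeded in 1, Pcsk2 in stimulated rats, where rat 7 at 331 CPM lay apart by 0.802 of the range. Vgf was not among them, since its stimulated values fall into 3 high and 2 low rats.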

How the results depend on the processing

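Over 23 alternative settings, the log2 fold changes of single members kept their direction in 221 of 229 comparisons, and those of Vgf, Scg2, Scg5, Chga, Chgb, Pcsk1 and Pam did so in all of them. The 8 reversals were small: Scg3 became -0.0099 with upper quartile factors, -0.023 with the unaligned share as a covariate and -0.029 with counts scaled to Cpe, and between -0.049 and 0.052 without single rats (below 0 without rat 2 or rat 8). Pcsk2 became -0.010 with counts scaled to Cpe and lay between -0.060 and 0.091 without single rats, and Cpe between -0.019 and 0.10 (both below 0 without rat 7 only). The number of members with an adjusted p-value under 0.05, 0 in the quasi-likelihood test, became 1 (Vgf) in the likelihood ratio test and 1 (Vgf) in edgeR's exact test, as did the number with an unadjusted p-value under 0.001 (1 and 1); the cause was not tested. Across the 10 fits that left out a rat, 0 members passed adjustment and from 0 to 1 had an unadjusted p-value under 0.001. From 2 to 5 members were higher at an unadjusted p-value under 0.05. There were 2 without rat 7, where Pam was lost, and 5 without rat 6 or rat 8, where Scg2 and Chga joined. Of all features 4.74% were higher without rat 7, 8.27% without rat 6 and 7.99% without rat 8. The log2 fold change of Vgf ranged from 1.42 (without rat 7) to 1.85 (without rat 8), and over the other settings from 1.24 (limma-voom) to 1.63. Among all features, scaling to Cpe gave 902 higher and 704 lower at an unadjusted p-value under 0.05. The permutation tests stayed on the same side of 0.05 in 30 of 30 alternatives. No paired analysis was possible because the rats carry 10 different numbers and no label pairs them. Depth limited Pcsk1 most, whose counts per rat began at 83.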
